A study of Mus musculus with 27 samples.

Results

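HE1 cells are early hemogenic endothelial cells, sorted as KIT+TIE2+CD41-, and the data on them were 4 of the 27 arrays of the series: 2 of untreated cells and 2 of cells given doxycycline (DOX). All samples came from a mouse embryonic stem cell (ESC) line that carries a DOX-inducible, Flag-tagged dominant-negative FOS (dnFOS) in the Hprt locus, so the untreated cells carried the cassette too. ESCs were grown as embryoid bodies for 3.75 days, FLK1+ cells were purified and placed in blast culture, and 1 µg/ml DOX was either left out or added from the start of that culture for 2 days before the sort. The members were the 4 arrays labelled as HE1 with 0 or 2 days of DOX, and all genes on them were considered. Arrays of cells without the cassette that received DOX were not part of the comparison, so DOX itself and dnFOS cannot be told apart, and nothing in the labels says whether same-numbered samples came from 1 culture. p-values therefore measure only the spread between these samples, which may be technical.

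AP-1 factors are dimers of FOS, JUN, ATF and related basic leucine zipper proteins that bind a short palindromic motif and carry signals from growth factor and stress kinases to genes. dnFOS pairs with JUN proteins and keeps the pair off DNA. In the embryo, endothelial cells of the hemogenic kind lose their vascular programme and give rise to blood cells in the endothelial-to-hematopoietic transition. In culture the FLK1+ hemangioblast gives vascular smooth muscle (SM) cells or passes through HE1 and then KIT+TIE2+CD41+ HE2 cells to floating KIT+TIE2-CD41+ hematopoietic progenitors (HP). The comparison of DOX-treated and untreated HE1 cells asks which genes change when AP-1 binding is blocked up to the early hemogenic endothelial stage.

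RNA levels were read from Agilent mouse arrays in 1 colour, and every value below is a log2 signal after subtraction of the 75th percentile of its array, so that 0 is the 75th percentile and a difference of 1 is 2-fold. Replicate 1 of both HE1 groups lay on slide 1 and replicate 2 of both lay on slide 2, and the slides were scanned on different days. A DOX array could thus be compared with the untreated array of its own slide. The 75th percentile of the signal was 124.5 and 128.5 on the untreated arrays and 138.1 on DOX replicate 1, but 335.2 on DOX replicate 2. The share of probes well above background ranged from 53.6% to 70.3%. The replicates of a group correlated with r = 0.95 for untreated and 0.93 for DOX-treated cells over 23186 genes, and arrays of 1 slide with r = 0.98 on slide 1 and 0.95 on slide 2.

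The sorted cells had the endothelial transcripts that the label calls for. Cdh5, which codes for the endothelial adhesion protein VE-cadherin, read 5.09 and 6.23 in untreated replicates 1 and 2, and 5.21 and 6.69 in the DOX replicates. Kit read 3.47 and 3.83 against 3.24 and 3.91, and 39 or 40 of the 40 endothelial genes were above background on each HE1 array. Spi1, the myeloid master regulator, was not above background on any HE1 array, and Itga2b, the gene of CD41, read 1.33 and 0.87 in untreated HE1 cells against 2.64 and 3.77 in untreated HE2 cells. Contractile genes were also present: Acta2, smooth muscle actin, read 8.42 and 6.34 untreated and 7.91 and 8.04 with DOX, between SM and HE2 levels. Tagln read 7.78 and 7.36 untreated against 6.48 and 7.17, and Cnn1 2.41 and 0.73 against -0.19 and 0.69. Of 25 tested smooth muscle and contractile genes, 13 had a lower and 12 a higher mean with DOX. Of the 28 smooth muscle genes on the array, 24 to 26 were above background on each HE1 array, and their mean level ranged from 1.12 to 1.79 in untreated and from 1.33 to 1.44 in DOX-treated cells. A bulk array cannot tell fewer cells of a type from less RNA per cell, here or for any value below.

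DOX replicate 2 stood apart in Tek and Itga2b, which are genes of the sort, and in other identity genes, but not in Kit. Tek, the gene of TIE2, read 2.22 and 2.74 in untreated cells and 2.75 in DOX replicate 1, but 0.21 in DOX replicate 2. Pecam1 read 1.29, 1.72 and 1.68 on those arrays and -0.21 in DOX replicate 2, and Itga2b read 1.33, 0.87 and 1.94 against -0.82. In contrast, Gata1 and Runx1, regulators of blood cell formation, read highest in DOX replicate 2, at -0.38 and 1.70, against at most -1.80 and 0.25 on the other arrays. Kdr, the FLK1 gene, read 4.44 and 5.74 against 4.62 and 4.87 with its brightest probe, its other probe going the opposite way, and Ptprc, the CD45 gene, was low throughout, from -3.96 to -2.27. The brightest probe for Itgam, the CD11b gene, read 4.53 to 6.13 in HE1 cells but also 3.23 to 5.10 in SM cells, and the 3 Itgam probes differed in direction. The same dip of Tek, Pecam1 and Itga2b was seen in HE2 DOX replicate 2, hybridized to the same slide, with -0.74, -0.73 and 0.06.

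**Figure D1:**
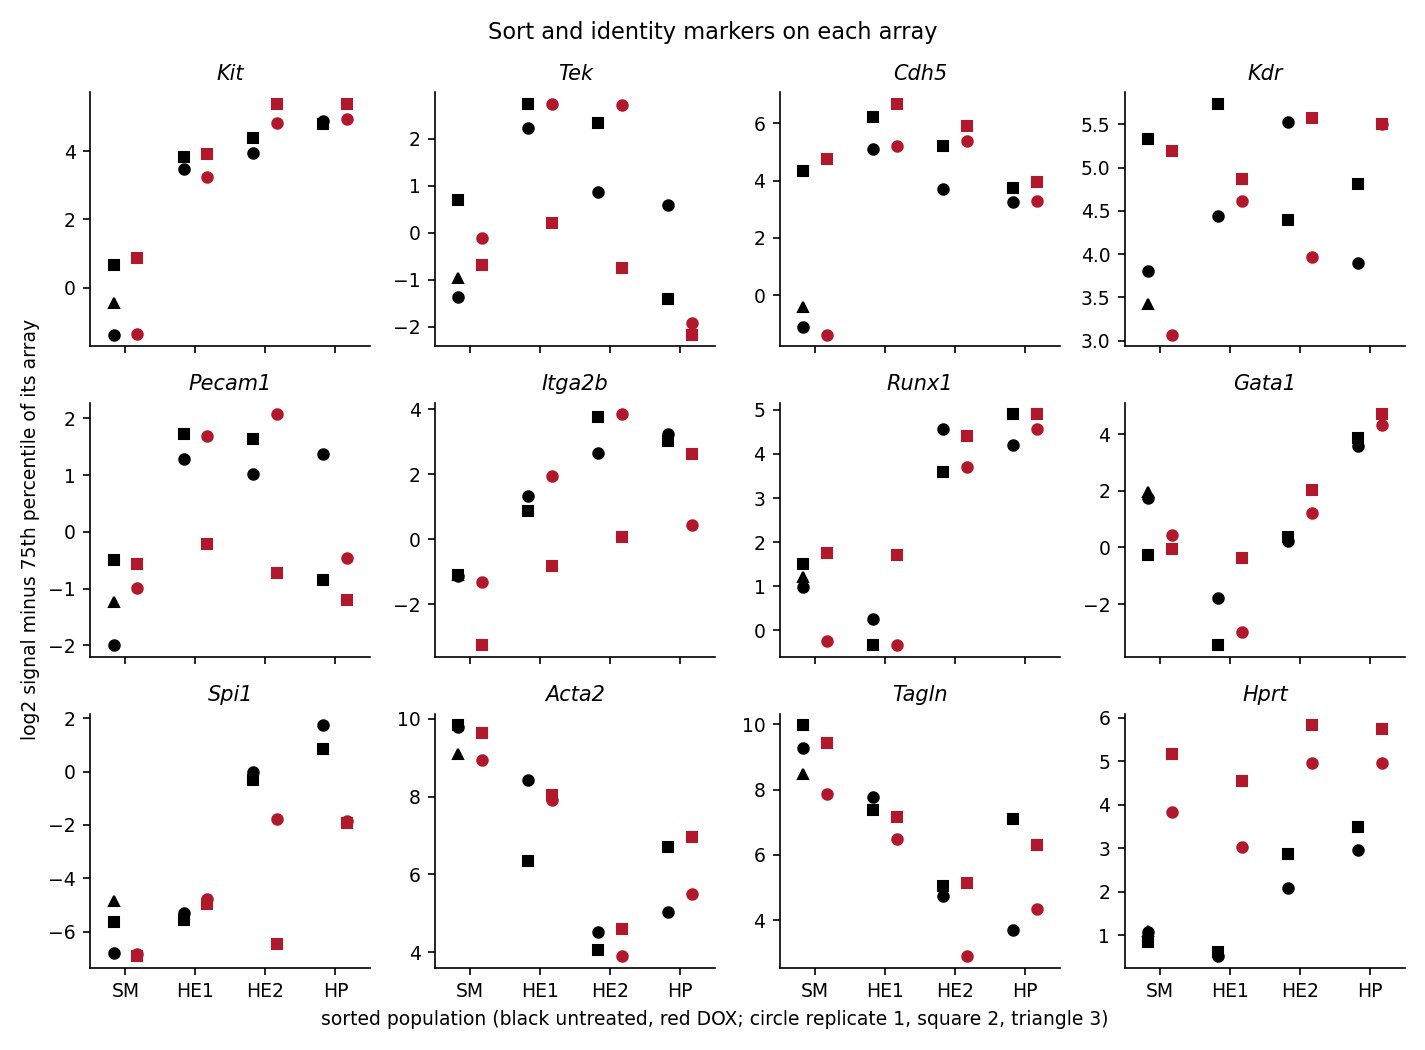
Log2 signal minus the 75th percentile of its array (y axis) for 12 sort and identity markers on each array of the SM, HE1, HE2 and HP populations (x axis); black is untreated, red is DOX, and the symbol gives the replicate. In HE1 cells Tek, Pecam1 and Itga2b of DOX replicate 2 lie below the other 3 arrays, while Hprt lies higher on both DOX arrays.

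Hprt was the gene with the smallest p in the comparison. It read 0.52 and 0.63 in untreated and 3.04 and 4.55 in DOX-treated HE1 cells, 2.52 higher on slide 1 and 3.92 higher on slide 2. The limma fit across all genes gave a log2 fold change of 3.22 (SE 0.56) with a Benjamini-Hochberg adjusted p of 0.400. Hprt is the locus of the cassette and was the transcript set against the labels, since the sources used here name no probe for dnFOS. Whether the Hprt probe reads RNA from the cassette is not given in them.

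The fit across all genes called no change. Of 23199 tested genes, those well above background on both arrays of at least 1 group, 0 (0.0%) reached an adjusted p under 0.05 with at least a 2-fold difference. Without adjustment, 296 genes had a p under 0.05, beside 1160 that make up 5% of those tested, and with at least a 2-fold difference 156 of these (0.672%) were lower and 128 (0.552%) higher with DOX. An exact permutation test of 2 arrays against 2 cannot go below a two-sided p of 0.333. A fixed term for the slide left 0 calls, and a random one gave 1, Hprt (limma adjusted p = 0.00842). With the replicate number as a block in a fit to the 4 HE1 arrays, 66 genes were called, 42 lower and 24 higher, but this fit left 1 residual degree of freedom and gave every gene the same spread (SD 0.615), so that it ranked genes by the mean difference alone. Of these, 29 of the 42 and 17 of the 24 differed at least 2-fold the same way on both slides. Among the genes described below, the calls of this fit were Ankrd1, Scel, Ifit1, Oasl2, Cldn6, Sema3e, Serpinc1, S100a6, Blnk, Inhba, Krt19, Vgll2, Tm4sf1 and Bmper as lower, and Hprt, Nr1h5, Myom2, Mmrn1, Aldh1a7, Ciart, Epb42, Mettl24 and Rtn4rl1 as higher, with adjusted p from 0.000171 for Scel to 0.0343 for Bmper.

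The differences measured on the 2 slides had little in common over all genes. Across 23186 genes the DOX differences of slide 1 and slide 2 correlated with r = -0.08, and their SD was 0.60 on slide 1 and 1.03 on slide 2. On slide 1, 969 genes (4.18%) were at least 2-fold higher and 943 (4.07%) lower, against 3274 (14.1%) and 3359 (14.5%) on slide 2. At least 2-fold lower on both slides were 217 genes (0.936%), and at least 2-fold higher on both were 120 (0.518%). Opposite directions also occurred, since 292 genes were at least 2-fold higher on slide 1 and lower on slide 2, and 48 were lower on slide 1 and higher on slide 2. The slide 2 difference of HE1 cells correlated across genes with that of SM cells (r = 0.69) and HE2 cells (r = 0.56) on the same slide and less with that of HP cells (r = 0.24). The slide 1 difference of HE1 cells gave r = 0.09 with that of HE2 and r = -0.04 with that of HP cells on slide 1, while the slide 2 difference gave r = 0.38 with the HE2 difference of slide 1. These coefficients are a description, and the arrays behind most of them share a slide.

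**Figure D2:**
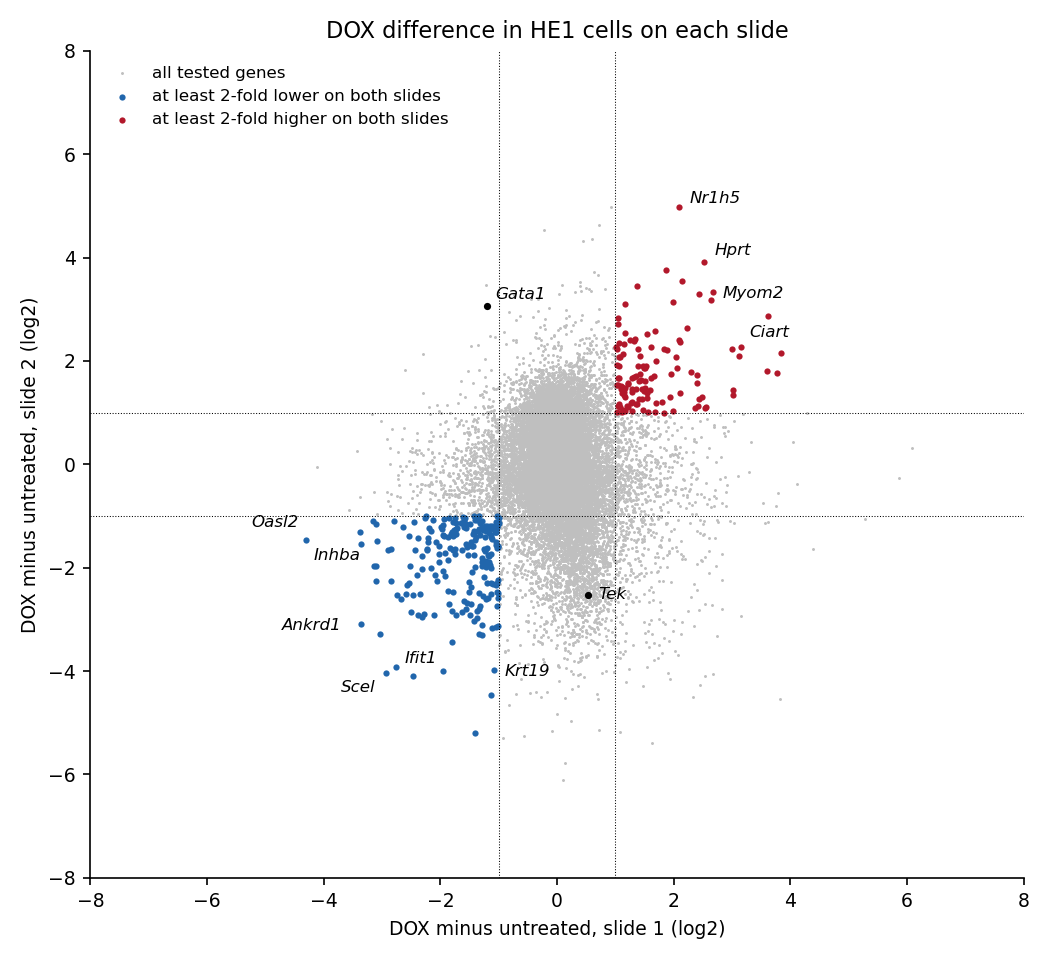
DOX minus untreated signal of each tested gene in HE1 cells on slide 1 (x axis, log2) and slide 2 (y axis, log2); dotted lines mark 2-fold. The 217 genes in blue and the 120 in red differed at least 2-fold the same way on both slides, Tek and Gata1 are marked in black as genes whose slides disagreed, and the cloud is wider on slide 2.

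The numbers of genes beyond 2-fold on both slides depended on the scaling, which also moved the balance of directions. Median scaling put the median of all genes at 0.37 in place of 0.09 and gave 120 lower and 200 higher genes, and quantile normalization gave 216 lower and 300 higher. The authors' processed values gave 95 lower and 66 higher, and normexp background correction, which compresses dim signals, 33 lower and 6 higher. Shared with the 217 lower genes were 151 of the 216 with quantile normalization, 97 of 120 with median scaling, 75 of 95 with the authors' values and 33 of 33 with normexp. Shared with the 120 higher genes were 108 of 300, 87 of 200, 43 of 66 and 5 of 6. Genes just inside the 2-fold limit included Tesc, with -1.43 and -1.0, and just outside it Hrct1, with -1.02 and -0.99. Of the 217 lower genes, 134 had a gene symbol, 119 were above background on all 4 arrays and 32 were above background on neither DOX array.

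The first gene in order of the smaller of its within-slide differences was Ankrd1, a cardiac ankyrin repeat gene known as a target of YAP and TEAD. It read 2.29 and 3.57 in untreated cells and -1.07 and 0.48 with DOX, about 10.3-fold lower on slide 1 and 8.51-fold lower on slide 2. Both DOX arrays were below both untreated arrays, as they were for 1930 of all genes (8.32%). The fitted log2 fold change was -3.23 (SE 1.44, limma adjusted p = 1.0), the adjusted p being 1.0 for every other gene described below as lower or higher. Across 18 alternative settings, several of which change only the spread, the log2 fold change of Ankrd1 lay between -4.0 and -2.45.

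Another 3 genes of the list of TEAD and YAP factors and targets were at least 2-fold lower on both slides. Vgll2, a TEAD cofactor of skeletal muscle, read 1.97 and -0.68 untreated and -0.51 and -3.20 with DOX, which is 2.48 and 2.52 lower, although the groups overlapped because replicate 2 was lower throughout. Ccn2, connective tissue growth factor, read 4.04 and 5.52 against 1.59 and 4.40. Axl, a receptor tyrosine kinase, read 0.65 and 0.05 against -0.45 and -2.27. These 4 were of 31 tested members, against 0.936% lower among all genes, and 0 were 2-fold higher on both slides, against 0.518%. The list's median of 0.12 was close to the 0.09 of all genes and below 0 with quantile normalization, the authors' values, the mean of all probes or without untreated or DOX replicate 2.

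Of 26 tested extracellular protease genes, 4 were at least 2-fold lower on both slides and 0 higher, against 0.936% lower and 0.518% higher among all genes. Plaur, the urokinase receptor, read 2.01 and 2.85 in untreated cells and -0.39 and 0.70 with DOX. Its groups did not overlap, as in 8.32% of all genes with DOX lower. Plat, the tissue plasminogen activator, was 1.01 lower on slide 1 and 3.13 lower on slide 2, with 0.47 in untreated replicate 2 and 0.49 in DOX replicate 1, so that its groups overlapped. Mmp23, a matrix metalloproteinase, was 1.14 and 2.29 lower. The protease list had a median of -0.19, which was 0.09 with median scaling.

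A few matrix genes stood apart from the rest of their list. Fbln2, a basement membrane fibulin, read 2.54 and 2.26 untreated and 0.23 and 0.49 with DOX. Tnc, tenascin C, was 2.39 and 1.43 lower, and Thbs1, the angiogenesis inhibitor thrombospondin 1, read 1.96 and 2.80 against -0.58 and 1.41. Together with Ccn2 these were among 5 of 33 tested matrix and laminin genes that were at least 2-fold lower on both slides, against 0.936% of all genes. In the same list, Sparcl1, a secreted SPARC-like protein, was 1.54 and 2.52 higher. In Fbln2, Tnc and Thbs1 the groups did not overlap, which was also so, with DOX lower, for 8.32% of all genes. The list's median was -0.28, but 0.00 with median scaling and 0.25 without DOX replicate 1. Of 24 collagens, Col1a2 alone was at least 2-fold lower on both slides (-1.12 and -1.20) and Col26a1 alone higher (1.42 and 2.10), against 0.936% and 0.518% of all genes. Of 39 integrin and actin adhesion genes, Itga8 was at least 2-fold higher on both slides (1.33 and 2.43) and 0 were 2-fold lower, while at any size 14 were lower and 7 higher on both, against 19.5% and 24.6% of all genes. Col1a1 differed between replicates rather than with DOX, at 4.51 and -1.55 untreated and 2.79 and -0.80 with DOX.

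**Figure D3:**
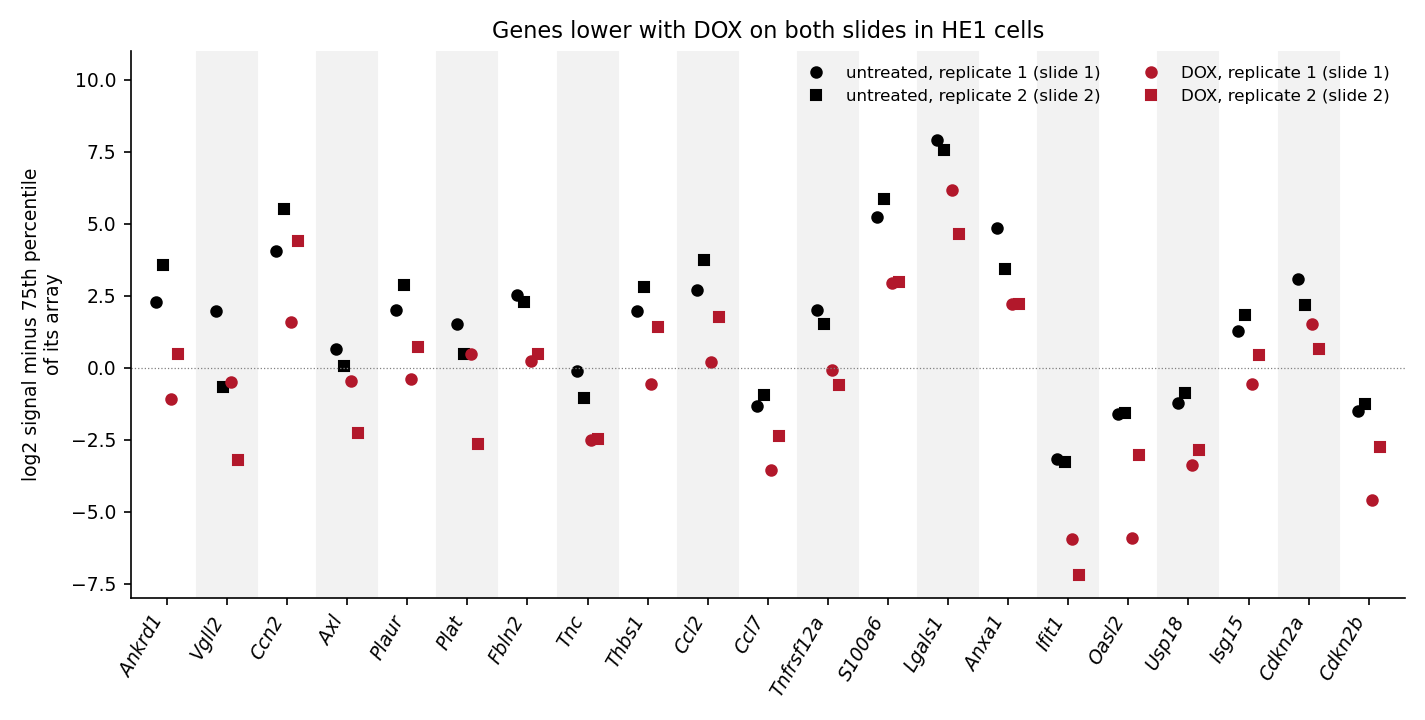
Log2 signal minus the 75th percentile of its array (y axis) on the 4 HE1 arrays for genes that were at least 2-fold lower with DOX on both slides (x axis), grouped as TEAD and YAP targets, protease, matrix, chemokine, S100, annexin and galectin, interferon and CDK inhibitor genes. Red DOX symbols lie below the black untreated symbol of the same shape in every gene, since this chose the genes.

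Of 23 tested S100, annexin and galectin genes, which code for calcium-binding and sugar-binding proteins, 5 were at least 2-fold lower on both slides and 0 higher, against 0.936% and 0.518% of all genes, and 9 had a higher mean with DOX. S100a6, calcyclin, read 5.23 and 5.87 untreated and 2.94 and 2.98 with DOX, a log2 fold change of -2.59 (SE 0.69). Lgals1, galectin 1, read 7.91 and 7.55 against 6.17 and 4.62. Anxa1, annexin A1, read 4.85 and 3.42 against 2.20 and 2.20, and Anxa2 read 6.89 and 7.09 against 5.75 and 5.88. S100a11 was 1.07 and 1.25 lower. All 5 were above background on all 4 arrays. The list's median was -0.29, and it remained below 0 in all 18 alternative settings, from -0.49 to -0.02. Several of these settings change only the spread and cannot move a median.

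Of 30 tested interferon response genes, 22 had a lower mean with DOX, against 43.8% of all genes. Ifit1, an antiviral protein that binds foreign RNA, read -3.18 and -3.28 untreated and was not well above background on either DOX array, so that it was at least 2.08-fold lower, while normexp gave a log2 fold change of -0.90. Oasl2 read -1.61 and -1.58 against -5.92 and -3.04, and Usp18, which removes ISG15 from proteins, read -1.21 and -0.88 against -3.37 and -2.87, with 1 of the 2 DOX arrays above background for each. Isg15 itself read 1.28 and 1.83 against -0.58 and 0.43, although a second probe gave a log2 fold change of -0.75. Rsad2, viperin, was 1.51 and 2.48 lower. These 5 of 30 were at least 2-fold lower on both slides, against 0.936% of all genes, with 0 higher. The median was -0.62 (-0.26 on slide 1 and -0.51 on slide 2), with a range of -0.75 to -0.24 over the alternative settings. The same list's median was -1.15 in SM, -0.71 in HE2 and -1.85 in HP cells. Of the 17 tested MHC class I genes 0 were beyond 2-fold on both slides, and their median was -0.21 in HE1 and 0.07 with median scaling.

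Of 40 chemokine and inflammatory genes on the array, 20 were bright enough to test, and 3 of these were at least 2-fold lower on both slides, against 0.936% of all genes. Ccl2, the monocyte chemoattractant MCP-1, read 2.70 and 3.73 untreated and 0.18 and 1.76 with DOX. Ccl7, a related chemokine above background on 1 of the 2 DOX arrays, was 2.22 and 1.42 lower. Tnfrsf12a, the TWEAK receptor Fn14, read 2.01 and 1.52 against -0.09 and -0.62, almost the same difference on both slides (-2.10 and -2.13), with an SE of 0.53. No member was 2-fold higher on both slides, and the list's median of -0.34 became 0.47 without DOX replicate 1.

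Among the TGF-beta and BMP pathway, Bmper, a secreted BMP-binding protein of endothelial cells, read 0.14 and 1.81 untreated and -2.40 and -0.49 with DOX. Inhba, the activin beta A chain, was not above background on either DOX array and was at least 3.57-fold lower, while normexp gave a log2 fold change of -0.94. The other 37 of 39 tested members were within 2-fold on at least 1 slide or differed in direction. Among all genes, 0.936% were at least 2-fold lower on both slides. The list's median of 0.06 was below 0 with quantile normalization (-0.06) and the authors' values (-0.09). Of the CDK inhibitor and cell division genes, Cdkn2a read 3.09 and 2.16 against 1.52 and 0.63, and Cdkn2b, its neighbour and an inhibitor of CDK4 and CDK6, read -1.52 and -1.26 against -4.60 and -2.74, with 1 DOX array above background. Both Cdkn2b probes were at least 2-fold lower on both slides, and 1 of the 2 Cdkn2a probes was. Of the 31 tested, 26 had a higher mean with DOX, against 56.2% of all genes, with a median of 0.49 that rested on slide 2 (0.86 against 0.02 on slide 1) and was -0.08 without DOX replicate 2.

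Other genes among the 12 first in order on the lower side had no list in common. Scel, sciellin, a precursor of the cornified envelope, read -1.25 and -2.51 untreated and was at least 5.29-fold lower with DOX, where no array was well above background. Cldn6, a tight junction claudin of early embryonic cells, was at least 3.31-fold lower, and Serpinc1, antithrombin, at least 3.56-fold lower. With normexp background correction, which gives no such bound, the log2 fold changes of these 3 were -1.13, -0.99 and -0.91. Sema3e, an endothelial guidance cue acting through plexin D1, read -0.82 and -0.48 against -3.32 and -3.34, with all 4 arrays above background. Blnk, a B cell adaptor, read -3.20 and -1.30 against -5.80 and -3.80, and Tm4sf1, a tetraspanin-like protein of endothelial cells, read -1.47 and 0.05 against -4.05 and -2.28. In both, only 1 DOX array was above background, so the exact size of the difference on the other slide is not measured. Lyve1, a lymphatic and early endothelial receptor for hyaluronan, was the only one of 39 tested endothelial genes at least 2-fold lower on both slides (1.55 and 1.59). None were 2-fold higher on both, and the shares of all genes were 0.936% lower and 0.518% higher. At any size, 8 were lower and 13 higher on both slides, against 19.5% and 24.6% of all genes. Of the mesothelial list, Wt1 was 1.45 and 1.58 lower, and Krt19 was 1.09 and 3.98 lower, with 9 members tested and a median of -0.70 that was 0.09 without DOX replicate 2. Msln, its defining gene, was above background on no HE1 array, and the mean level of the list was -0.73 and -1.69 in untreated and -1.12 and -3.0 in DOX-treated cells. The part of such cells in the differences was not tested.

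AP-1 motifs were looked for in the promoters of these genes, because dnFOS acts on that motif. RefSeq promoter windows (GRCm38.p6), from 250 bases before to 50 bases after a gene's start, were matched by symbol for 97 of the 134 genes with a symbol that were at least 2-fold lower on both slides. The AP-1 motif TGACTCA or TGAGTCA, which are each other's reverse complement so that both strands are read, was in 12 of these 97 (12.4%), in 3 of 55 matched higher genes (5.45%), in 513 of 11049 tested genes (4.64%) and in 5.95% of all 27025 symbols with a promoter. The TEAD motif GGAATG, on either strand, was in 14 of 97 lower genes (14.4%), among them Ankrd1, Anxa1, Axl and Cldn6, and in 14.9% of the tested genes. These shares are descriptions without a test. Of the genes named above as lower, 5 had the AP-1 motif before their start, and these 250 bases are shown with the motif in capitals.
Scel, chr14:103513091-103513340, + strand: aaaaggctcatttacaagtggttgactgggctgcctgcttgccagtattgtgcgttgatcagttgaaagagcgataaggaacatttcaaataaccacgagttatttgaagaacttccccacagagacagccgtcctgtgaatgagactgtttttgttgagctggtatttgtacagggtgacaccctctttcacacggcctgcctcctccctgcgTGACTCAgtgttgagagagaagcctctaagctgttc
Plaur, chr7:24462233-24462482, + strand: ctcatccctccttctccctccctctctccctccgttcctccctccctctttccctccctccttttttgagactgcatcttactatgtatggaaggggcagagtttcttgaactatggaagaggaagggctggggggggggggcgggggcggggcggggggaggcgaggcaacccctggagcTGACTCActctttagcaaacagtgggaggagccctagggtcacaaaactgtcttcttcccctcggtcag
Rsad2, chr12:26456453-26456702, - strand: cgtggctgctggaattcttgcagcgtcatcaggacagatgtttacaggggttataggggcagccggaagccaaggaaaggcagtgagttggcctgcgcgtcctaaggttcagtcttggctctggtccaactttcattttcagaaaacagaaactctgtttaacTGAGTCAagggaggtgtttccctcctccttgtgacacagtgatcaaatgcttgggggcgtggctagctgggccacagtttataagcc
Anxa2, chr9:69453433-69453682, + strand: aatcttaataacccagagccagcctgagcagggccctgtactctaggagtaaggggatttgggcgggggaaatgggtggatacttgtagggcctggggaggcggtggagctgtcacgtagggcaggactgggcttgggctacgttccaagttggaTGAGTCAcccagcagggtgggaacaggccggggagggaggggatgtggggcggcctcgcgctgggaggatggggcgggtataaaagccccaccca
S100a11, chr3:93520246-93520495, + strand: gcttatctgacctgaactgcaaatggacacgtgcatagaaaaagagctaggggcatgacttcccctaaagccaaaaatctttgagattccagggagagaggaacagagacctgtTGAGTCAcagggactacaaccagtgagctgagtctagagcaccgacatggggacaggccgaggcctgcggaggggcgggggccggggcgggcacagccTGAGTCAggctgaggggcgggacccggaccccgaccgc

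The motif starts 36 bases before the gene's start in Scel, 69 in Plaur, 87 in Rsad2, 95 in Anxa2, and 136 and 38 in S100a11. A match of these letters is not a site shown to be bound in HE1 cells.

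Of the 120 genes at least 2-fold higher with DOX on both slides, 43 were above background on both untreated arrays, 28 on 1 and 49 on neither. Rtn4rl1, a Nogo receptor homologue above background on all 4 arrays, read -2.55 and -2.66 untreated and -0.33 and -0.03 with DOX, and a log2 fold change of 2.43 (SE 0.57). Stab2, a scavenger receptor of sinusoidal endothelium, read -0.67 and -2.89 against 1.36 and -0.82. Nr1h5, a nuclear receptor of the farnesoid X receptor group, read -2.45 and -6.20 against -0.36 and -1.23, and Slco2b1, an organic anion transporter, -4.62 and -3.59 against -2.53 and -1.20, both with 1 untreated array above background. Of the 12 genes first in order on the higher side, 7 were not above background untreated and are given as bounds. They were at least 5.19-fold higher for Mettl24, 5.18-fold for Mmrn1, an endothelial and platelet multimerin, and 3.80-fold for Myom2, a sarcomeric M-band protein. The bounds were at least 3.04-fold for Aldh1a7, 2.61-fold for Nckap5, 2.52-fold for Epb42, a red cell membrane protein, and 2.27-fold for Ciart, a circadian repressor. These bounds hold for the processed signal scaled to the 75th percentile. With normexp background correction the 7 log2 fold changes were from 0.045 for Ciart to 0.587 for Mettl24, all under 2-fold. Hprt was the remaining member. Also higher were Mrc1 of the myeloid list (1.12 and 1.48) and the platelet receptor Treml1 (1.38 and 1.17, with 1 untreated array above background). Without DOX, Mrc1 had a mean of 1.3 in HE1 cells, above -1.2 in HE2, -3.2 in HP and -4.4 in SM cells. Csf2rb, the shared receptor chain for IL-3 and GM-CSF, was 1.04 and 1.55 lower, with a second probe at a mean of -0.55. Mrc1, Treml1 and Csf2rb were each 1 member of a list. Of 22 tested myeloid, 19 erythroid and 16 megakaryocyte markers no more than 1 was at least 2-fold lower and 1 at least 2-fold higher on both slides. The shares of all genes were 0.936% lower and 0.518% higher.

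None of the 20 tested AP-1 family genes, of 22, differed 2-fold the same way on both slides, beside 0.936% lower and 0.518% higher among all genes. Fos read 2.30 and 3.63 untreated and 2.49 and 5.17 with DOX, Fosb 3.02 and 3.70 against 3.37 and 5.28, and Jun 6.99 and 6.61 against 7.04 and 8.04. These genes were thus 0.05 to 0.35 higher on slide 1 and 1.43 to 1.58 higher on slide 2. Jund was 0.33 and 0.87 higher and Junb 0.90 higher and 0.56 lower. Lower on both slides were Atf3 (0.68 and 1.22), Batf3 (0.72 and 2.14), Fosl2 (0.88 and 0.25), Crem (0.50 and 0.24) and Mafk (0.40 and 0.48). Maf, a large MAF protein gene, was 0.63 and 2.50 higher. Atf1, Atf2, Atf4, Creb1, Maff and Mafg were lower on slide 1, by 0.13 to 0.44, and higher on slide 2, by 0.83 to 1.61, Jdp2 differed by -0.21 and 0.06 and Batf2 by 0.05 and -0.78. Other probes of Crem, Atf1, Atf2, Atf4, Creb1 and Mafg gave a mean of the opposite sign. Whether the Fos probe also reads dnFOS is not given in the sources used here. Fosl1 and Batf were not above background on both arrays of either group. The family's median was -0.19 on slide 1 and 0.89 on slide 2, beside -0.0022 and 0.16 for all genes, and it was -0.15 without DOX replicate 2.

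The study names 37 genes in connection with AP-1 in this system, of which 35 were tested; it chose some of them on these samples, so their direction is not independent evidence. At least 2-fold lower on both slides were 7, among them Cdkn2a, Cdkn2b, Wt1, Ccn2 and Axl, and 0 were higher, against 0.936% and 0.518% of all genes. Bmp1 and Hbegf, coding for a procollagen protease and an EGF-like growth factor, were lower by 0.36 to 0.92. Bmp2, Vegfa, Tgfb2, Pdgfc and Itga11 were 0.80 to 1.74 lower on slide 1 but 0.00 to 1.03 higher on slide 2, and Col5a1, Col1a1 and Fgf15 likewise differed in sign between slides. Eng and Col4a1, and Csf1r, the M-CSF receptor gene, were higher on slide 1 and 1.46 to 2.01 lower on slide 2. Gfi1, a repressor of the endothelial programme, was 2.01 lower on slide 1 and 0.35 lower on slide 2, at 1.81 and 1.98 untreated against -0.20 and 1.64. Bmi1, Epor, Gata3 and Stat5a were higher by 0.08 to 0.33 on slide 1 and by 0.95 to 1.58 on slide 2, whereas Hoxb4, Sox7, Stat5b, Gas6, Runx1 and Gata1 were lower on slide 1 and higher on slide 2. Irf8, Nog and Myo1e were lower by less than 2-fold on both. Spi1 and Cebpa were not tested. The median of the 35 was -0.40, with -0.77 on slide 1 and 0.00 on slide 2, and it was 0.12 without untreated replicate 1.

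**Figure D4:**
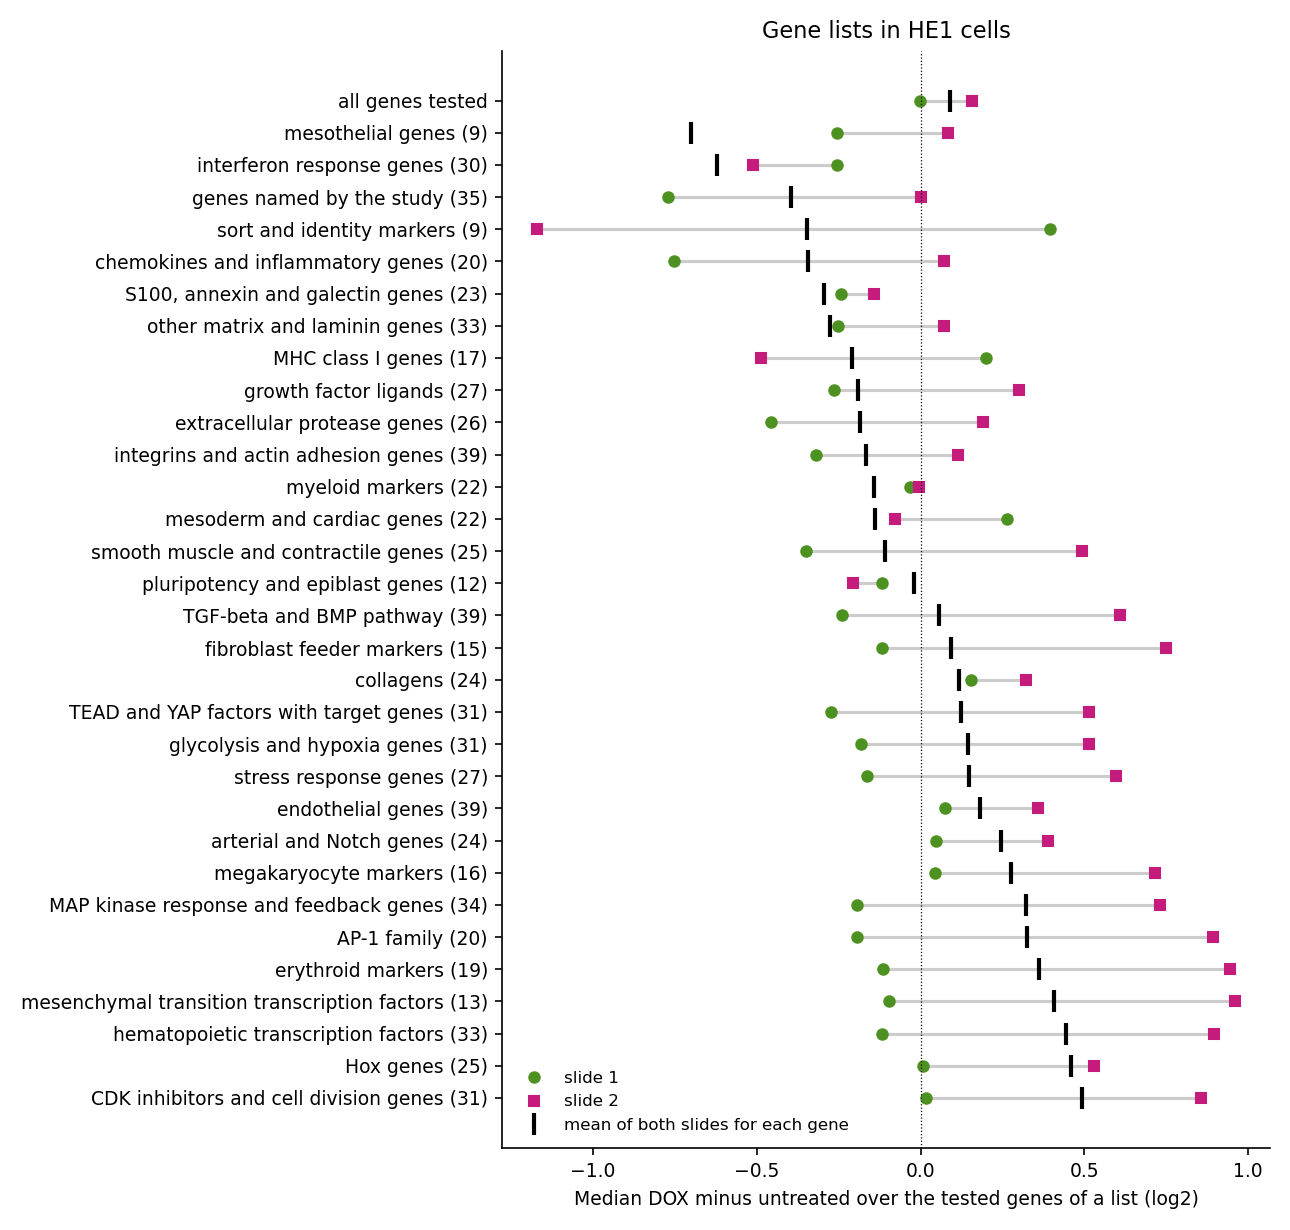
Median DOX minus untreated signal over the tested genes of each of 31 gene lists in HE1 cells (x axis, log2), with the number of tested genes in parentheses (y axis); circles give slide 1, squares slide 2 and bars the median of the gene means over both slides. Most lists lie further right on slide 2 than on slide 1. The interferon response and the S100, annexin and galectin lists lie below 0 on both slides, as do the myeloid and pluripotency lists, whose medians were above 0 with median scaling (0.14 and 0.26).

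Of 15 tested fibroblast feeder markers, Col1a2 alone, given above with the collagens, was beyond 2-fold on both slides, and the list's median of 0.09 ranged from -0.79 to 1.06 when single arrays were left out, the lowest without untreated replicate 2 and the highest without DOX replicate 2. The mean level of these markers was 0.16 and -1.5 in untreated and -0.020 and -1.3 in DOX-treated cells. Beside 0.936% lower and 0.518% higher among all genes, several other lists had 0 members beyond 2-fold on both slides in either direction. They were the arterial and Notch genes (24 tested), hematopoietic transcription factors (33), smooth muscle and contractile genes (25), MAP kinase response and feedback genes (34), glycolysis and hypoxia genes (31), stress response genes (27), Hox genes (25), mesenchymal transition transcription factors (13), mesoderm and cardiac genes (22) and pluripotency genes (12). Of 27 growth factor ligands, Egf alone was beyond it, 1.10 and 1.46 higher with 1 untreated array above background. The hematopoietic transcription factors had a median of -0.12 on slide 1 and 0.90 on slide 2, and of -0.13 without DOX replicate 2.

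The other sorted populations, whose arrays were not used to choose the genes, were examined for the same genes. Of the 217, 113 (52.1%) had a mean at least 2-fold lower with DOX in SM cells, 121 (55.8%) in HE2 and 66 (30.4%) in HP cells, against 7.22%, 15.4% and 6.33% of all genes tested in HE1. In all 3 of these populations 39 of the 217 (18.0%) were at least 2-fold lower, against 0.97% of all genes, and 2, 3 and 16 of the 217 were at least 2-fold higher in SM, HE2 and HP cells. Among the 120 higher genes, 29.2%, 40.0% and 33.3% were at least 2-fold higher in SM, HE2 and HP cells, against 3.24%, 15.2% and 7.07% of all genes, but 25.0% were at least 2-fold lower in HE2 cells. Replicate 2 of all 4 populations lay on slide 2, whose differences went together across genes as given above. Of the 5 SM arrays, replicate 2 of each group had a mean endothelial gene level of 2.00 and 2.02 where the other 3 had -1.50 to -1.20. Their part in the overlap was not tested.

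S100a6 was lower by nearly the same amount in each population, with log2 fold changes of -2.59 in HE1, -2.50 in SM, -2.58 in HE2 and -2.56 in HP cells. Ankrd1 gave -3.23, -2.20, -2.10 and -3.16. Tnfrsf12a gave -2.12, -2.97, -1.74 and -2.49. By contrast, Bmper gave -2.42 in HE1 but -0.16, -0.49 and -0.16 in SM, HE2 and HP cells. Sema3e gave -2.68 against -0.99 in SM and HP cells, and Lyve1 -1.57 against 0.12 in HE2 and -0.60 in HP cells, while Sema3e in HE2 and Lyve1 in SM cells were too dim to be tested. These contrasts were not established: the interaction test in limma called 0 genes for HE1 against SM (smallest adjusted p 0.684, 123 genes at an unadjusted p under 0.05), 0 against HE2 (1, 333 genes) and 0 against HP (0.835, 397 genes). Against HP cells, 6 genes were called with quantile normalization and 18 with the authors' values. For Bmper the DOX effect in HE1 was 2.26 below that in SM and HP cells and 1.93 below that in HE2 cells, with an adjusted p of 1.0 in each.

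**Figure D5:**
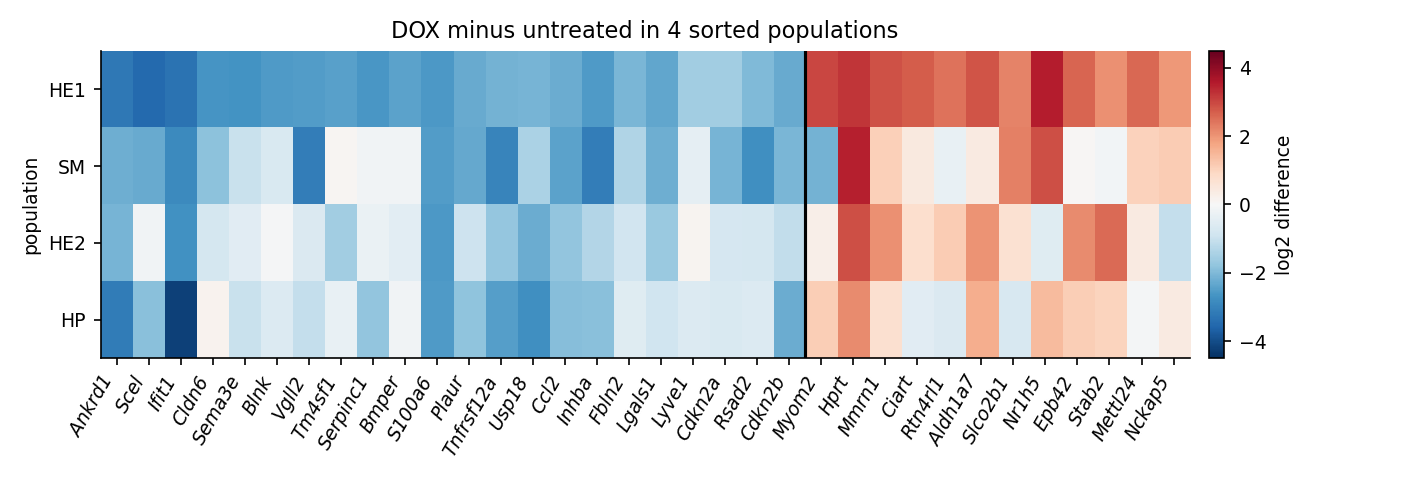
Log2 difference between DOX-treated and untreated means (colour) in HE1, SM, HE2 and HP cells (rows) for named genes that were lower and 12 that were higher on both HE1 slides (columns, split by the line). S100a6 and Ankrd1 are blue in all 4 rows, and Bmper is paler in the other rows than in HE1, though with the 75th percentile scaling no difference between populations passed its test. Colours also show dim probes, for which the size of a difference is not measured.

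Without DOX, the genes lower in HE1 more often had higher levels in SM than in HE2 cells. In a comparison of untreated SM and HE2 arrays, which the choice of genes did not use, 95 of the 217 (43.8%) were at least 2-fold higher in SM cells, against 14.0% of all genes tested in HE1, and 25.8% were at least 2-fold higher in HE2 cells, against 15.8%. Among the 120 genes higher with DOX the shares were 25.8% and 30.8%. The median level of the 217 was 0.53 higher in SM than in HE2 cells, beside -0.10 for all genes.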

How the data were processed

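Each of 27 RNA samples had its own Agilent mouse array, read in 1 colour. Every spot's processed signal, median signal and local background, as deposited, are an intensity, obtained by the authors with Agilent Feature Extraction (10.7.3.1 per the file headers, 10.7.1.1 in the submitters' notes), background-subtracted for the processed signal and not scaled between arrays. The authors also deposited log2 values, normalized between arrays by a method not given in the sources used here (limma is in the submitters' notes), which served as an alternative. Well-above-background and outlier flags were read from the scanner files.

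Of 62976 spots, 55681 probes were not controls and 26582 had a RefSeq gene symbol. Outlier spots were left out before repeated spots were averaged, log2 signals were lowered by each array's 75th percentile, and the brightest probe was kept for each of 37208 genes or transcripts (20145 with a symbol). There were 0 identical pairs of arrays and 0 saturated spots on HE1 arrays. Means of 13 groups were fitted to all 27 arrays by limma 3.58.1 (lmFit, eBayes) under R 4.3.3 (and the data.table package, version 1.17.8), with 14 residual and 4.37 prior degrees of freedom. Lists, counts and figures used Python 3.11.15, pandas 2.3.3, numpy 2.4.6 and matplotlib 3.10.9. A bound is the brighter group's mean against the mean, over the dim arrays, of the higher of the probe's own value and the lowest signal well above background there. The fit was tested on simulated data.

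Members and lists were chosen with earlier results of these data known. Named are all genes of the AP-1, marker and study lists, up to 6 members of every other list that differed at least 2-fold the same way on both slides, and the 12 genes lower and 12 higher that came first by the smaller of the 2 within-slide differences, without predicted genes and pseudogenes. Acta2, Tagln, Cnn1, Spi1, Msln, Tesc and Hrct1 fall outside this rule and were named after their values were seen. A few genes that the rule would name are not reported here. The number of arrays limits the precision of every value. Alternatives were other background, scaling, probe and detection settings, blocks for slide or replicate, fits to fewer groups, array weights, a variance trend, other thresholds and leaving out each array. Same-numbered arrays deviated together (r = 0.45), and they share a slide.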

Additional observations from a re-analysis of the deposited data

Results flagged for a closer look

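For 3 genes that were higher with DOX in HE1 cells, both DOX arrays of another population lay on the other side of its untreated arrays, and the difference between the 2 DOX effects did not pass the interaction test. Myom2 was higher on both HE1 DOX arrays and lower on both SM DOX arrays, with a fitted DOX effect 5.13 higher on the log2 scale in HE1 than in SM cells. Nckap5 read lower on both HE2 DOX arrays, a fitted difference of 3.03, but it was too dim to be tested in HE2 cells, so that neither this size nor the direction in HE2 cells is measured. Rtn4rl1 was lower on both HP DOX arrays, a difference of 3.06. Each had a limma adjusted p of 1.0. Myom2 and Nckap5 were above background on neither untreated HE1 array, so their fitted differences depend on signals not above background, whereas Rtn4rl1 was above background on all 4 HE1 arrays.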

How the results depend on the processing

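With the replicate number as a block and the 4 HE1 arrays alone, 66 genes were called where 0 were without it. Hprt alone was called with quantile normalization, the authors' processed values and the slide as a random block (1 gene each), and 0 in every other setting tried. The log2 fold change of Hprt was 3.17 with quantile normalization (adjusted p = 0.000664), 3.15 with the authors' values (adjusted p = 6.08e-05) and 3.22 with the replicate block (adjusted p = 0.000495) or the slide as a random block (adjusted p = 0.00842), and 2.46 to 3.97 when each array was left out.

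The number of genes higher at an unadjusted p and at least 2-fold, 128, was 54 with normexp background correction, 345 with quantile normalization, 203 with median scaling, 217 with the authors' processed values, 73 with detection in both groups, 310 with the replicate block, 264 with the slide as a fixed block, 276 with it as a random block, and 102 to 688 with an array left out. The number lower, 156, was 46 with normexp, 81 with median scaling, 450 without the filter on dim probes, 84 with detection in both groups, 683 with the replicate block, 274 and 288 with the slide as a fixed and random block, and 123 to 632 with an array left out. Without untreated replicate 1 the numbers were 263 higher and 632 lower, and without DOX replicate 1 they were 688 and 519.

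Genes higher on both slides, 120, were 6 with normexp, 300 with quantile normalization, 200 with median scaling, 66 with the authors' values, 266 without the filter, 43 with detection in both groups and 514 at 1.5-fold. Genes lower on both, 217, were 33 with normexp, 120 with median scaling, 95 with the authors' values, 518 without the filter, 119 with detection in both groups and 677 at 1.5-fold. The interaction with HP cells gave 6 calls with quantile normalization and 18 with the authors' values. The cause of these differences was not tested. All 58 named genes beyond 2-fold on both slides kept their direction in the fitted mean in every setting. They had been chosen by that direction on the same arrays, and several settings change only the spread or the filter. Their direction is thus not tested by these settings. Of 558 list medians, 69 moved by more than the SD between slides. Dim probes limit the comparison too: 32 of the 217 lower genes were above background on neither DOX array, and 49 of the 120 higher genes on neither untreated array.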
